A study of Arabidopsis thaliana with 9 samples.

Results

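Ferritin messages were measured by RNA sequencing in leaves of Arabidopsis thaliana plants that were 9 weeks old and belonged to the Shahdara accession. Leaf ferritin is encoded by 3 genes, FER1 (AT5G01600), FER3 (AT3G56090) and FER4 (AT2G40300), which were chosen by locus from 32833 listed genes with measured values known, so their levels and fold changes are given as a description with no p. All 3 passed the filter on low counts that left 19409 genes to be tested. The 9 libraries form 3 groups of 3 biological replicates: a Shahdara line labelled IAA26 knockout, a Shahdara line labelled IAA26 stable, and wild type Shahdara. IAA26 is an Aux/IAA protein, a repressor of auxin-responsive transcription that is degraded when auxin is present. No treatment other than genotype is labelled, and the sources used here do not give how the lines were made, whether each is 1 clone, or the time of day of harvest. The replicates are not said to come from separate plants or pools, so p-values measure the spread between these samples.

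Ferritins form hollow protein shells that store iron in a mineral form that does not react with oxygen. In plants they sit mainly in plastids, and in leaves they buffer the iron that is set free or not yet built into photosynthetic proteins. FER1, FER3 and FER4 are the forms known from vegetative tissue, while FER2 is known as the seed form. In Arabidopsis, iron excess raises FER1 transcripts and iron shortage lowers them, and FER4 protein is also found in mitochondria.

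The IAA26 transcript was present in every library, with 16.7, 17.2 and 12.4 RPKM (exon reads scaled by exon length and library depth) in the knockout-labelled line, 12.7, 9.81 and 10.3 RPKM in the stable line and 17.5, 18.5 and 20.3 RPKM in wild type. In edgeR's quasi-likelihood test, Benjamini-Hochberg adjusted over all genes tested, its log2 fold change was -0.40 (adjusted p = 0.12) in the knockout-labelled line and -0.70 (adjusted p = 0.0112) in the stable line, each against wild type. The transcript thus does not check the knockout label, and the line is named by that label. Libraries held 28585976 to 45346301 exon reads. Knockout-labelled library 3 stood apart in floral genes, with 4.46 RPKM of AP3 and 8.44 RPKM of PI, against at most 0.323 and 0.952 RPKM in the other 8 libraries. Knockout-labelled library 2 stood apart in the senescence protease gene SAG12, with 394 RPKM against at most 52.6 RPKM elsewhere.

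The 4 Arabidopsis ferritin genes share 1 plan in the RefSeq TAIR10.1 annotation. Each has 8 exons, all 8 of them coding, and the 6 inner exons measure 84, 61, 88, 62, 66 and 64 bases in every gene. FER1 lies on the minus strand at chr5:227953-230051, FER3 on the minus strand at chr3:20813904-20816035, FER4 on the minus strand at chr2:16831109-16833294 and FER2 on the plus strand at chr3:3463477-3465506. The predicted proteins have 255, 259, 259 and 253 residues in that order. FER3 and FER4 are the closest pair, with 79.5% identical residues among those aligned, whereas FER1 shares 62.0% with FER3 and 66.1% with FER4. The coding sequences are far enough apart for reads to be placed: 97.7% to 98.4% of FER1 exon reads per library were unique, as were 100% of FER3 and FER4 reads.

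Known iron and phosphate elements lie before the FER1 coding start, and the matches there are shown for that reason. In the 300 bases before the first coding base, on either strand, 5 motifs were searched in 27443 protein-coding genes. The iron-dependent regulatory sequence (IDRS, CACGAGNCCNCCAC), through which FER1 is known to be held down when iron is short, was found in 1 window of all of them, that of FER1. The PHR1 binding site (P1BS, GNATATNC), bound by the phosphate starvation factor PHR1, was in 5.23% of windows and among ferritins in that of FER1. The G-box (CACGTG), a site of bHLH and bZIP factors, was in 6.23% of windows and in those of all 4 ferritin genes, and overlapped no other match there. The evening element (AAATATCT) was in 4.78% of windows and among ferritins in that of FER3, and the CCA1-binding site (AAAAATCT) was in 8.09% of windows and in no ferritin window. The matches below are from the RefSeq TAIR10.1 reference, which is of another accession than Shahdara, each 30 bases on the gene's own strand with the motif in capitals.
FER1 IDRS, chr5:229763-229792, minus strand: ggatgtagCACGAGGCCGCCACacgcccct
FER1 P1BS, chr5:229803-229832, minus strand: taacgtggatcGAATATCCtcacgttcaca
FER1 G-box, chr5:229720-229749, minus strand: atatccaccctcCACGTGgatctcaatcca
FER4 G-box, chr2:16833346-16833375, minus strand: atctcgtacgtaCACGTGtctctcatccgc
FER3 G-box, chr3:20816094-20816123, minus strand: atcgtatccatcCACGTGtcaacaatccac
FER3 evening element, chr3:20816165-20816194, minus strand: caacggaaaaaAAATATCTgccagcaaagc
FER2 G-box, chr3:3463496-3463525, plus strand: ttctcctctttcCACGTGtccaacaaacag

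The G-box sat at a like distance in all 4 genes. It began 143 bases before the coding start in FER1 and FER2, 149 bases in FER4 and 127 bases in FER3. In FER1 the IDRS began 190 bases and the P1BS 227 bases before the coding start. All 3 FER1 matches lie in an exon of its annotated 5′ leader, which is 457 bases long. The leaders of FER3 and FER4 are annotated as 51 and 80 bases, and their matches lie upstream of the annotated start. A match is a run of letters in the reference and no measure of binding in these leaves.

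**Figure D1:**
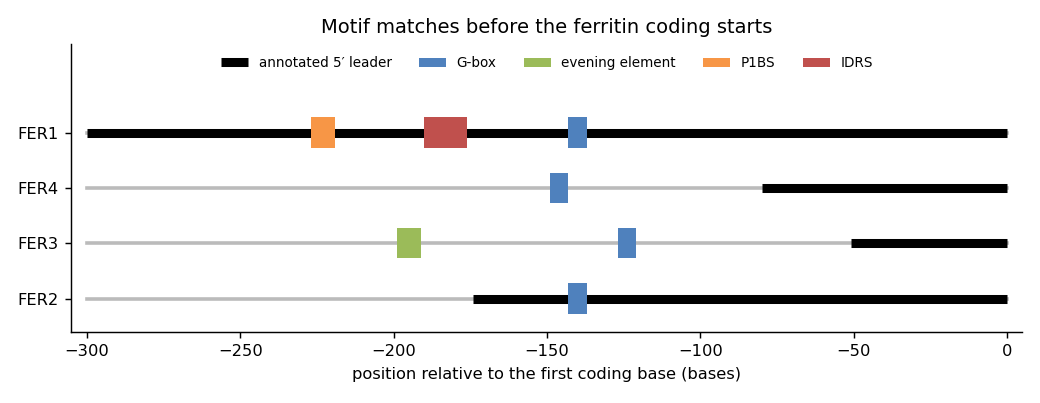
Motif matches in the 300 bases before the first coding base of the 4 ferritin genes, in bases from that base; black bars are the annotated 5′ leader. The G-box is at 127 to 149 bases in every gene, while the IDRS and P1BS matches are found in FER1.

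FER1, whose transcripts are known to rise with iron excess, was by far the most abundant ferritin message and differed most between libraries. It stood at 274, 293 and 107 RPKM in the knockout-labelled line, 83.7, 33.4 and 43.4 RPKM in the stable line and 79.2, 64.6 and 48.6 RPKM in wild type. Every knockout-labelled library was above all 6 others, with library 3 well below its sister libraries, and the stable and wild type values overlapped. The group means were 224 ± 103 RPKM in the knockout-labelled line, 53.5 ± 26.6 RPKM in the stable line and 64.1 ± 15.3 RPKM in wild type (SD, n = 3 each). The log2 fold change was 1.68 (SE 0.41), or 3.20-fold, for knockout-labelled against wild type leaves and -0.21 (SE 0.40) for stable against wild type leaves. For stable against knockout-labelled leaves it was -1.89 (SE 0.42), with all 3 stable libraries lower. These values rest on 5732 to 16115 FER1 exon reads in knockout-labelled, 1622 to 3643 in stable and 2793 to 4400 in wild type libraries. Ranked by RPKM among all genes, FER1 took places 207, 193 and 756 in the knockout-labelled line, 1122, 3034 and 2288 in the stable line and 1156, 1558 and 2138 in wild type.

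FER4, the form also found in mitochondria, showed a smaller difference in the same direction in the knockout-labelled line. It stood at 14.9, 16.8 and 9.69 RPKM there, at 8.06, 5.25 and 7.53 RPKM in the stable line and at 6.29, 5.33 and 3.34 RPKM in wild type. The knockout-labelled libraries were again above all others, and 2 of the 3 stable libraries exceeded the highest wild type library. Means were 13.8 ± 3.70 RPKM in knockout-labelled, 6.95 ± 1.49 RPKM in stable and 4.99 ± 1.51 RPKM in wild type leaves (SD, n = 3 each). The log2 fold change was 1.35 (SE 0.27), or 2.55-fold, for knockout-labelled and 0.55 (SE 0.27) for stable leaves, each against wild type. It was -0.80 (SE 0.26) for stable against knockout-labelled leaves.

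FER3, the closest relative of FER4, had the narrowest range of the 3. It stood at 6.32, 6.23 and 6.64 RPKM in the knockout-labelled line, 4.68, 4.14 and 5.36 RPKM in the stable line and 6.57, 5.42 and 4.63 RPKM in wild type. The wild type values spanned nearly the whole range and overlapped both lines, while every stable library was below every knockout-labelled one. Means were 6.40 ± 0.214 RPKM in knockout-labelled, 4.73 ± 0.608 RPKM in stable and 5.54 ± 0.976 RPKM in wild type leaves (SD, n = 3 each). The log2 fold change was 0.10 (SE 0.16) for knockout-labelled and -0.15 (SE 0.16) for stable leaves, each against wild type, and -0.24 (SE 0.16) for stable against knockout-labelled leaves. The first of these became -0.02 without wild type library 3 and the second 0.0035 without wild type library 1, so neither has a settled direction.

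**Figure D2:**
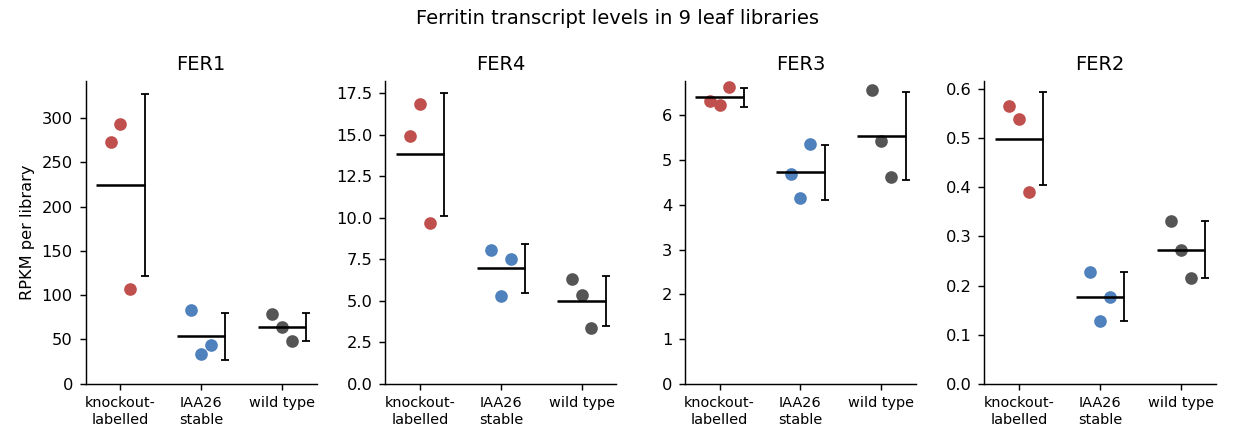
RPKM of FER1, FER4, FER3 and the seed form FER2 in each library (points, 3 per group), with the group mean (line) and SD (bar); each panel has its own axis from 0. FER1 and FER4 of the knockout-labelled line lie above all other libraries, and FER3 spans 4.14 to 6.64 RPKM over all 9.

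FER2, the seed form, was read at the edge of detection, by 5 to 24 exon reads per library. It had 0.566, 0.540 and 0.391 RPKM in the knockout-labelled line, 0.227, 0.127 and 0.177 RPKM in the stable line and 0.331, 0.273 and 0.215 RPKM in wild type. In edgeR's quasi-likelihood test, Benjamini-Hochberg adjusted, the log2 fold change was 0.75 (adjusted p = 0.243) for knockout-labelled and -0.55 (adjusted p = 0.351) for stable leaves, each against wild type, and -1.30 (adjusted p = 0.0552) for stable against knockout-labelled leaves. Without stable library 1 the last comparison had an edgeR adjusted p of 0.0368. The seed storage and oil body markers SESA3, CRA1 and OLEO1 were listed at 0 in all 9 libraries. The plastid iron-sulphur gene SUFE1, which every green cell uses, was also listed at 0 throughout, so a 0 in this table says no more than that.

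Across genes the comparisons differed in how much was called, and the members' counts stand beside that background. Of 19409 genes tested, 3809 had an unadjusted p under 0.05 in knockout-labelled against wild type leaves. The number was 5253 in stable against wild type and 5935 in stable against knockout-labelled leaves. Knockout-labelled against wild type leaves, edgeR called 1.66% of all genes tested at an adjusted p of 0.05, in either direction, and 0 of the 3 leaf ferritins, with 2 of 3 at an unadjusted p under 0.05. DESeq2 called 9.18% of genes in that comparison and 2 of the 3 ferritins (FER1 and FER4, both higher), and limma-voom 1.67% of genes and 1 of the 3 (FER4). With edgeR on unique exon reads or on library totals alone, FER4 was called higher as the 1 of 3. Stable against wild type leaves, edgeR called 8.87% of genes and 0 of the 3 leaf ferritins, 0 at an unadjusted p under 0.05, and DESeq2 and limma-voom also called 0 of the 3, beside 18.0% and 8.27% of genes. Stable against knockout-labelled leaves, edgeR called 6.96% of genes and 1 of the 3, FER1, which was lower; DESeq2 called 18.8% of genes and 2 of the 3 (FER1 and FER4), and limma-voom 5.37% of genes and 1 of the 3 (FER1). The FER1 call was lost in 6 of the 9 fits that left out 1 library, those without knockout-labelled library 1 or 2, stable library 2 or 3, or wild type library 2 or 3, and also with only the 2 groups compared in the fit. Since the genes were chosen on these libraries, nothing is read from these counts.

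Separation of the RPKM values was common in these libraries. The 3 knockout-labelled values lay wholly above or below the 3 wild type values for 31.7% of genes tested, and for FER1 and FER4 among the leaf ferritins. The stable values lay wholly above or below the wild type values for 26.6% of genes and for 0 of the 3 leaf ferritins. The stable values lay wholly above or below the knockout-labelled ones for 35.3% of genes and for all 3 leaf ferritins, each lower.

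**Figure D3:**
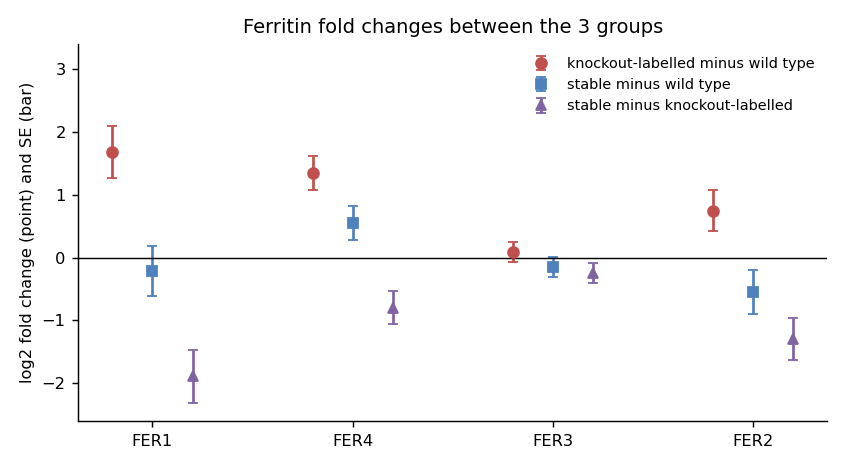
Log2 fold changes (points) and their standard errors (bars) of the 4 ferritin genes in the 3 comparisons, from 1 edgeR fit of all 9 libraries. FER1 and FER4 are above 0 in knockout-labelled minus wild type, with 1.68 and 1.35, and FER3 stays between -0.24 and 0.10.

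The make-up of the ferritin message pool differed between libraries, as did its size. FER1, FER3 and FER4 together summed to 295, 316 and 123 RPKM in the knockout-labelled line, 96.4, 42.8 and 56.2 RPKM in the stable line and 92.1, 75.3 and 56.6 RPKM in wild type. FER1 made up 92.8%, 92.7% and 86.7% of that sum in knockout-labelled libraries, 86.8%, 78.0% and 77.1% in stable libraries and 86.0%, 85.7% and 85.9% in wild type libraries. The wild type share was the same within 1 percentage point although the sum differed between libraries, whereas it varied in both lines.

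FER4 exceeded FER3 in the lines and was near or below it in wild type. FER4 over FER3, as a ratio of RPKM, was 2.36, 2.70 and 1.46 in knockout-labelled leaves and 1.72, 1.27 and 1.41 in stable leaves, against 0.957, 0.983 and 0.721 in wild type. FER4 was thus the more abundant of the pair in all 6 libraries of the lines. In wild type libraries 1 and 2 the pair was close to equal, with 290 FER4 against 309 FER3 exon reads and 320 against 332. In wild type library 3 FER4 was lower, with 169 against 239 exon reads. FER1 over FER4 was 18.4, 17.4 and 11.0 in the knockout-labelled line, 10.4, 6.35 and 5.76 in the stable line and 12.6, 12.1 and 14.6 in wild type. All 3 stable libraries were below all 3 wild type libraries in this ratio, and the knockout-labelled values lay on both sides of wild type.

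**Figure D4:**
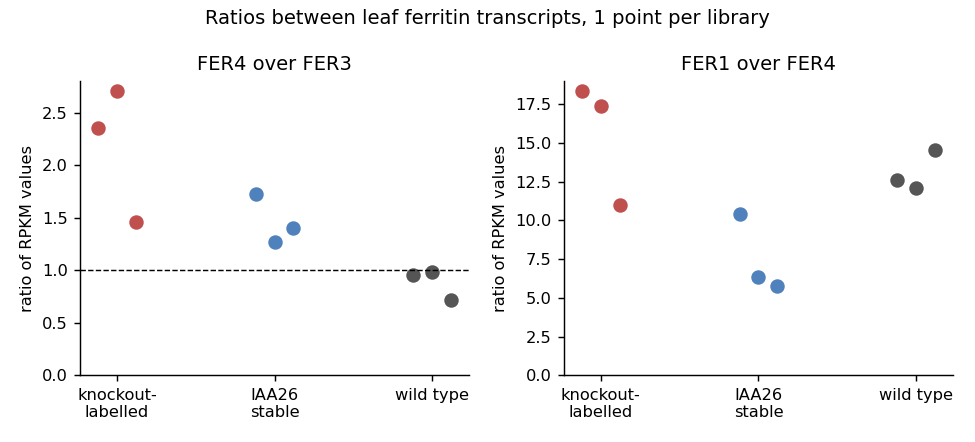
Ratios of RPKM between leaf ferritin messages, 1 point per library; the dashed line marks equal RPKM. FER4 over FER3 is 1.27 to 2.70 in the 6 libraries of the lines and 0.721 to 0.983 in wild type, and FER1 over FER4 is lowest in the stable line.

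FER1 reads across exon junctions and in introns are given beside the exon reads. Junction reads are part of the exon reads, 64.6% to 74.7% of them per library, so the 2 are not independent. An antisense gene overlaps FER1 and the strand setting is not given, so intron reads need not all be unspliced FER1. Reads across exon junctions came to 311, 324 and 117 CPM (counts scaled to the library's total of exon reads) in the knockout-labelled line, 93.5, 32.5 and 45.5 in the stable line and 85.6, 70.3 and 51.3 in wild type. Reads in FER1 introns came to 12.6, 11.4 and 4.96 CPM in the knockout-labelled line, 4.06, 1.99 and 2.92 in the stable line and 4.66, 4.34 and 2.63 in wild type. Both kinds were highest in the 3 knockout-labelled libraries, and introns held 2.52% to 4.29% of all FER1 gene reads. FER3 and FER4 introns held 0% to 4.05% and 0% to 1.84% of their gene reads.

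Neighbouring genes overlap FER1 and FER4 and were measured beside them. The antisense long noncoding gene AT5G01595 covers 1334 bases of FER1 on the opposite strand, at chr5:226972-229286. It had 3.32, 3.62 and 3.90 RPKM in the knockout-labelled line, 1.61, 2.88 and 2.78 RPKM in the stable line and 3.19, 2.77 and 3.00 RPKM in wild type, from 13 to 39 exon reads per library. The sources used here do not say if counting heeded strand, so reads of the shared stretch cannot be told apart. The antisense gene's own count was at most 39 reads where FER1 had at least 1622. Of its exon reads, 96.9% to 100% per library crossed exon junctions. Its count therefore does not bound how many antisense reads were counted in FER1. AT2G40290 shares 118 bases with the 3′ end of FER4 on the same strand and had 2038 to 3510 exon reads. It stood at 40.6, 46.3 and 38.3 RPKM in the knockout-labelled line, 47.9, 34.5 and 38.3 RPKM in the stable line and 38.4, 42.4 and 45.3 RPKM in wild type, with overlapping groups. FER4 itself had 169 to 816 exon reads. How reads of the shared bases were assigned is not given, so their part in all FER4 values and ratios here is unknown. In bulk leaves, fewer cells of a type and less RNA per cell cannot be told apart for any of these genes.

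Among themselves, FER1 and FER4 varied together more closely than either did with FER3. Over the 9 libraries, Pearson's r of log2 CPM was 0.83 for FER1 with FER4, 0.40 for FER1 with FER3 and 0.44 for FER3 with FER4. With the group means taken out these were 0.81, -0.04 and 0.48. FER2 had an r of 0.94 with FER1. The libraries, their depth and their scaling are shared by all these values, and they are given as a description.

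The genes whose pattern was most like each ferritin were sought among the 16788 tested genes that averaged 1 RPKM or more, by Pearson's r of log2 CPM over the 9 libraries. For FER1 these were AL4 (AT5G26210), an Alfin-like PHD finger protein, with an r of 0.98, then AT3G60110 and AT2G24650, each with 0.97. AL4 followed the order of FER1 with a much smaller range, at 65.0, 66.0 and 54.1 RPKM in the knockout-labelled line, 47.6, 37.6 and 39.7 RPKM in the stable line and 47.3, 46.5 and 45.6 RPKM in wild type. For FER4 they were AT4G24610 with 0.97, AT1G02960 with 0.97 and AGD2 (AT1G60860) with 0.95. For FER3 they were AT2G20710 with 0.96, AT5G08780 with 0.95 and AT2G32840 with 0.95. No gene was on more than 1 of the 3 lists.

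The iron deficiency regulators, genes that plants switch on when iron runs short, were called lower for 4 of 11 genes in the line where FER1 and FER4 were highest. Of the 11 tested, 4 fell and 0 rose in knockout-labelled against wild type leaves, with a list median log2 fold change of -1.83 beside 0.00 for all genes. The 4 were the IRON MAN peptide genes IMA2 and IMA1, whose peptides signal iron need, and the bHLH factors bHLH38 and bHLH100, which drive iron uptake; the last pair is named to spell out the count. IMA2 stood at 5.46, 5.03 and 6.63 RPKM in knockout-labelled and 24.5, 13.1 and 18.7 RPKM in wild type leaves, a log2 fold change of -1.83 (SE 0.24, edgeR Benjamini-Hochberg adjusted p = 0.0184). IMA1 had a log2 fold change of -2.49 (edgeR adjusted p = 0.0302), bHLH38 of -4.57 (edgeR adjusted p = 0.0423) and bHLH100 of -5.44 (edgeR adjusted p = 0.0475). The 2 bHLH genes were at 0.0488 to 0.952 RPKM in the knockout-labelled line and 5.20 to 18.6 RPKM in wild type. The count of 4 became 0 without knockout-labelled library 1 or 2 or wild type library 3, 1 without knockout-labelled library 3 or stable library 3, and 2 without stable library 2 or wild type library 1 or 2. It became 5 without stable library 1. The 322 calls over all genes became 11 and 10 without knockout-labelled library 1 and 2, 30 without wild type library 3 and 546 without stable library 1. DESeq2 called 9 of the 11 and limma-voom 1. With replicate number as a block in the edgeR fit, IMA2 alone of the 4 was called. Over all genes in this comparison edgeR called 1.66%, DESeq2 9.18% and limma-voom 1.67%.

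In the stable line, where FER1 overlapped wild type, edgeR called 0 of the 11 genes against wild type, with 2 at an unadjusted p under 0.05, DESeq2 1 and limma-voom 0, although all 11 fold changes were below 0 (median -0.53); the count became 1 without knockout-labelled library 2. IMA3, the third IRON MAN gene, had the smallest p, with 53.3, 52.7 and 63.5 RPKM in stable and 162, 94.1 and 151 RPKM in wild type leaves (log2 fold change -1.18, edgeR adjusted p = 0.0969); 70.9% of its reads were unique. Stable against knockout-labelled leaves, 3 of the 11 rose and 0 fell, with a median of 1.12: IMA2 by 1.60 on the log2 scale (edgeR adjusted p = 0.0171), IMA1 by 2.21 (edgeR adjusted p = 0.0255) and bHLH38 by 4.01 (edgeR adjusted p = 0.0337). That count became 0 without knockout-labelled library 1 or 2 or stable library 2, 1 without stable library 3, 2 without wild type library 3 and 5 without stable library 1. In that comparison DESeq2 called 5 of the 11, beside 18.8% of genes, and limma-voom 2, beside 5.37%. Over all genes edgeR called 6.96% there. Without knockout-labelled library 1, knockout-labelled library 2 and stable library 2 it called 3, 8 and 158 genes, and without stable library 1 it called 5241.

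Library by library, the summed RPKM of the 13 listed iron deficiency regulators was 122, 68.0 and 118 in the knockout-labelled line, 137, 153 and 182 in the stable line and 376, 209 and 281 in wild type. The 3 groups did not overlap in this sum, but IMA3 and BTS, an iron-sensing ubiquitin ligase gene, made up 62.1% to 79.4% of it in each library. Without these genes it was 25.2, 19.2 and 27.8 RPKM in the knockout-labelled line, 45.7, 56.9 and 69.0 RPKM in the stable line and 122, 61.9 and 74.8 RPKM in wild type, where the stable and wild type values overlapped. Over the 9 libraries FER1 had an r of -0.90 with bHLH38, -0.85 with IMA2 and -0.81 with IMA1, and r was below 0 for 9 of the 11 tested regulators. The median r of FER1 with the 11 was -0.78. With the group means taken out, FER1 had an r of -0.68 with bHLH38 and -0.16 with IMA1. It was then below 0 with 9 of the 11 (median -0.37). For FER4, r was below 0 with 10 of the 11 (median -0.80), but with 7 of the 11 (median -0.09) once the group means were taken out. For FER3, r was below 0 with 5 of the 11, and with 2 of the 11 (median 0.66) once the group means were taken out. These are descriptions over 9 libraries that share their depth and scaling.

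**Figure D5:**
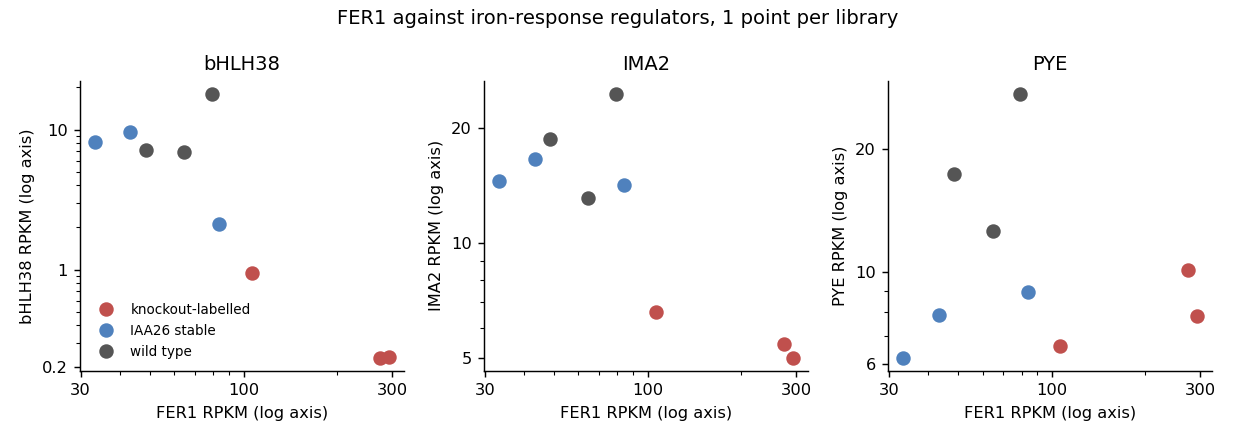
RPKM of bHLH38, IMA2 and PYE against FER1 in each library, on log axes. The knockout-labelled libraries sit at the right and low for bHLH38 and IMA2, and PYE is lower in both lines than in wild type.

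Factors reported to act on ferritin genes in Arabidopsis had 0 to 2 of 10 genes called by edgeR per comparison. Of 10 tested (PYE, ILR3, URI, bHLH11, bHLH104, bHLH34, bHLH115, PHR1, PHL1 and TIC), edgeR called 0 in knockout-labelled against wild type leaves, with 1 at an unadjusted p under 0.05, DESeq2 1 and limma-voom 0. PYE, a bHLH repressor of iron genes, stood at 10.2, 7.84 and 6.62 RPKM in knockout-labelled, 8.98, 6.20 and 7.87 RPKM in stable and 27.1, 12.6 and 17.3 RPKM in wild type leaves. Both lines were below wild type in every library. Its log2 fold change against wild type was -1.33 (edgeR adjusted p = 0.0593) in the knockout-labelled line and -1.24 (edgeR adjusted p = 0.033) in the stable line. With bHLH34, an activator of iron deficiency genes, PYE made the 2 of 10 genes that fell in stable against wild type leaves; bHLH34 fell by 0.85 on the log2 scale (edgeR adjusted p = 0.0311). Stable against knockout-labelled leaves, bHLH34 was the 1 gene that fell (log2 fold change -0.84, edgeR adjusted p = 0.0402) and 0 rose. Over all genes edgeR called 8.87% in stable against wild type and 6.96% in stable against knockout-labelled leaves. DESeq2 called 2 and 1 of the 10 in these comparisons, beside 18.0% and 18.8% of genes. By limma-voom 0 of the 10 were called in either, beside 8.27% and 5.37% of genes.

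The calls of PYE and bHLH34 leaned on single libraries, as did the calls over all genes. Fits without 1 library called 584 to 3786 of all genes in stable against wild type leaves. In stable against knockout-labelled leaves they called 3 to 5241. The count of 2 became 1 without knockout-labelled library 1 and 0 without knockout-labelled library 2, stable library 2 or 3, or wild type library 1 or 3. The count of 1 became 0 without knockout-labelled library 1 or 2, stable library 2 or 3, or wild type library 2 or 3, and 3 without stable library 1. PHR1, the factor of the P1BS element, stood at 31.8, 33.2 and 28.9 RPKM in knockout-labelled, 28.1, 29.7 and 29.4 RPKM in stable and 32.4, 33.9 and 30.3 RPKM in wild type leaves. TIC, a clock-linked nuclear protein known as a repressor of FER1, stood at 119, 109 and 90.3 RPKM in knockout-labelled, 93.2, 58.9 and 61.2 RPKM in stable and 90.7, 79.5 and 83.4 RPKM in wild type leaves. TIC was highest in knockout-labelled libraries 1 and 2, as FER1 was, with an r of 0.87 over the 9 libraries, given as a description. Among phosphate starvation response genes, which PHR1 drives, edgeR called 0 of 9 tested in each comparison. An unadjusted p under 0.05 was found for 2 in knockout-labelled and 4 in stable leaves, each against wild type, and for 1 in stable against knockout-labelled leaves. Among all 19409 genes tested these numbers were 3809, 5253 and 5935. DESeq2 called 0, 1 and 1 of the 9 phosphate genes in that order, and limma-voom 0 in each. The galactolipid synthase gene MGD3 had the smallest p in knockout-labelled against wild type leaves, at 16.3, 25.2 and 7.61 RPKM in knockout-labelled and 3.09, 4.51 and 7.63 RPKM in wild type leaves (edgeR adjusted p = 0.193). The phosphate sensor gene SPX1 had the smallest p in stable against wild type leaves, at 17.0, 12.9 and 11.9 RPKM in stable and 9.46, 8.39 and 11.7 RPKM in wild type leaves (edgeR adjusted p = 0.0899). The noncoding AT4 had it in stable against knockout-labelled leaves, at 1.46, 1.66 and 6.20 RPKM in stable and 1.03, 0.359 and 0.790 RPKM in knockout-labelled leaves (edgeR adjusted p = 0.0867), and the count there became 1 without stable library 1.

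Iron transport and storage genes other than ferritins had calls by edgeR in each comparison. Of 22 tested, 3 fell and 0 rose in knockout-labelled against wild type leaves: the zinc-nicotianamine transporter ZIF1 fell by 1.16 on the log2 scale (edgeR adjusted p = 0.0412), the ferric reductase FRO3 fell by 0.64 (edgeR adjusted p = 0.0412) and the phloem iron transporter OPT3 fell by 0.95 (edgeR adjusted p = 0.0423). Stable against wild type leaves, 3 of the 22 fell and 1 rose: FRO3 fell by 0.64 (edgeR adjusted p = 0.015), the ferric reductase FRO2 fell by 1.58 (edgeR adjusted p = 0.0199), OPT3 fell by 0.78 (edgeR adjusted p = 0.0313) and the exporter FPN1 rose by 0.50 (edgeR adjusted p = 0.0305). OPT3 and FPN1 are named to spell out the counts. Stable against knockout-labelled leaves, the nicotianamine synthase NAS1 rose by 2.28 (edgeR adjusted p = 0.0476) and FRO2 fell by 1.42 (edgeR adjusted p = 0.0373). The list medians were -0.15, -0.28 and -0.02 in those 3 comparisons. Over all genes edgeR called 1.66%, 8.87% and 6.96% in the same order.

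Leaving out 1 library moved these counts widely, and also those over all genes. Over all genes such fits called 10 to 546, 584 to 3786 and 3 to 5241 in the 3 comparisons, in the order above. The 3 calls in knockout-labelled against wild type leaves became 0 without any 1 knockout-labelled library, stable library 3, or wild type library 1 or 3, and 1 without stable library 2 or wild type library 2. The 4 calls in stable against wild type leaves became 0 without stable library 2 or 3, 1 without wild type library 1, 2 without knockout-labelled library 1 or 2 or wild type library 3, and 9 without stable library 1. The 2 calls in stable against knockout-labelled leaves became 0 without knockout-labelled library 1 or 2, stable library 2 or 3, or wild type library 2 or 3, 1 without knockout-labelled library 3 or wild type library 1, and 8 without stable library 1.

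Plastid iron-sulphur cluster assembly, the other plastid use of iron examined, had 0 or 1 of 11 genes called by edgeR per comparison. Of 11 genes tested, edgeR called 0 in either line against wild type. In the knockout-labelled line 4 had an unadjusted p under 0.05, DESeq2 called 2 and limma-voom 0, and in the stable line all 3 of these counts were 0. Of all 19409 genes tested, 3809 had such a p in the knockout-labelled and 5253 in the stable line. NFU3, a scaffold gene, had the smallest p in the knockout-labelled line (log2 fold change 0.28, edgeR adjusted p = 0.0977) and the cysteine desulfurase gene NFS2 in the stable line (-0.16, edgeR adjusted p = 0.202). NFU3 fell by 0.32 on the log2 scale in stable against knockout-labelled leaves (edgeR adjusted p = 0.0404). This was the 1 call of 11 there, where edgeR called 6.96% of all genes. NFU3 stood at 27.9, 21.8 and 26.1 RPKM in stable and 37.1, 36.0 and 34.9 RPKM in knockout-labelled leaves. The NFU3 call was lost without knockout-labelled library 1 or 2, stable library 2 or 3, or wild type library 2 or 3, and the count became 5 without stable library 1. Without knockout-labelled library 3 the count was 1 of 11, but NFU3 itself was not called.

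Enzymes that remove peroxide and superoxide, whose substrates feed iron-driven oxidation, had calls for CAT1 and CAT2, which went opposite ways, and none for the third catalase gene CAT3 (smallest edgeR adjusted p = 0.127). Of 15 tested, CAT1 rose in knockout-labelled leaves, at 68.7, 73.0 and 67.7 RPKM against 28.8, 44.3 and 32.3 RPKM in wild type (log2 fold change 0.88, edgeR adjusted p = 0.0455). In stable leaves CAT1 stood at 97.8, 78.2 and 66.3 RPKM and rose by 1.28 against wild type (edgeR adjusted p = 0.00442), and CAT2, the main leaf catalase, fell by 0.96 (edgeR adjusted p = 0.0182). Over all genes edgeR called 1.66% in knockout-labelled against wild type, 8.87% in stable against wild type and 6.96% in stable against knockout-labelled leaves. Stable against knockout-labelled leaves, edgeR called 0 of 15, with 3 at an unadjusted p under 0.05, DESeq2 1 and limma-voom 0. The thylakoid ascorbate peroxidase gene TAPX had the smallest p there, at 21.5, 30.1 and 32.1 RPKM in stable and 20.2, 21.4 and 25.0 RPKM in knockout-labelled leaves (edgeR adjusted p = 0.106). The CAT1 call in the stable line held in all 9 fits without 1 library. In the knockout-labelled line it was lost without any 1 knockout-labelled library, stable library 2 or 3, or wild type library 1 or 3, and the CAT2 call was lost without stable library 2 or 3 or wild type library 1 or 3. Without stable library 1 the counts became 2 in knockout-labelled against wild type, 6 in stable against wild type and 4 in stable against knockout-labelled leaves. That fit called 546, 3786 and 5241 of all genes in the same order.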

How the data were processed

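Total RNA from 9 leaf libraries was made into sequencing libraries with a NEB kit, per the labels' protocols. The authors deposited 1 table of whole-number counts per gene (exon, unique exon, junction, intron and gene reads) and RPKM values, per the file headers. Per the submitters' processing notes, reads were placed on TAIR10. The sources used here do not state the aligner, the counter or its strand setting. Of 32833 identifiers, 32547 were found in the RefSeq TAIR10.1 annotation, 32531 with the same start and end.

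Exon read counts were filtered with filterByExpr (count 10, total 15, share 0.7), TMM-scaled and fitted by edgeR 4.0.16 quasi-likelihood in R 4.3.3, all 9 libraries in 1 fit with a mean per group; calls used a Benjamini-Hochberg adjusted p of 0.05 over 19409 genes. An SE is the log2 fold change over the square root of F. The fit was tested on simulated data. Log2 CPM used a prior count of 2. RPKM levels were compared between genes as deposited. Proteins were aligned with Biopython 1.88 (BLOSUM62, gap costs 10 and 0.5). Alternatives included DESeq2 1.42.0, limma 3.58.1 (voom), other scalings, unique or junction reads, RPKM on a log2 scale with pseudocounts of 1 and 0.1, and leaving out each library.

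The members and lists were chosen with earlier results of these data known. Besides members, FER2 and IAA26, each list and comparison names up to 2 called genes with the smallest p, or the 1 with the smallest p. The lists were iron deficiency regulators, regulators reported to act on ferritin genes, iron transport and storage, plastid iron-sulphur assembly, peroxide and superoxide removal, phosphate starvation, and markers of senescence, flower, seed, vasculature and mesophyll. Of 116 list members, 100 were tested.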

Additional observations from a re-analysis of the deposited data

How the results depend on the processing

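The log2 fold changes of FER1, FER3 and FER4 were recomputed in 20 alternative settings for each of 3 comparisons, and 178 of the 180 values moved by less than 1 SD between replicates. The exceptions were both FER3 in stable minus knockout-labelled leaves, -0.43 with library totals alone as scaling and -0.44 on log2(RPKM + 0.1). FER1 in knockout-labelled minus wild type leaves ranged over 1.47 to 2.00 and FER4 over 1.13 to 1.55. FER1 in stable minus knockout-labelled leaves ranged over -2.29 to -1.68 and FER4 over -0.99 to -0.66. In stable minus wild type leaves FER1 ranged over -0.61 (without stable library 1) to -0.01 and FER4 over 0.33 to 0.76 (without wild type library 1). Scaling by library totals alone moved the median of all genes by 0.11 in knockout-labelled minus wild type and by -0.19 in stable minus knockout-labelled leaves.

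The number of genes called depended strongly on the setting. From 322 in knockout-labelled against wild type, 1721 in stable against wild type and 1351 in stable against knockout-labelled leaves, it became 1778, 3418 and 3641 with DESeq2. With only the groups compared in the fit, it became 615 in stable against wild type and 703 in stable against knockout-labelled leaves. Leaving out 1 library at a time gave 10 to 546, 584 to 3786 and 3 to 5241 genes in the 3 comparisons. The lowest counts came without knockout-labelled library 2 (10), stable library 2 (584) and knockout-labelled library 1 (3), and the highest in all 3 without stable library 1. The cause was not tested. Same-numbered libraries of different groups deviated from their group means with r of -0.44 to 0.52. Differently numbered ones did so with r of -0.60 to 0.54, so these values do not settle whether the numbers pair the samples. Introns held 3.89%, 4.03% and 3.79% of gene reads in library 2 of the knockout-labelled, stable and wild type groups. In libraries 1 and 3 they held 4.61% to 4.99%, and a shared batch was not tested. With replicate number as a block in the fit, 134 genes were called in knockout-labelled against wild type leaves. The other counts stayed within 1.5 times. With the block, 1 of the 4 iron deficiency regulators called lower in knockout-labelled against wild type leaves, IMA2, was called. ZIF1 and CAT1 lost their calls there too (edgeR adjusted p = 0.091 and 0.0737). The calls of FPN1, ORE1 and RCA in stable against wild type leaves were also lost. Those of bHLH38 and WRKY53 in stable against knockout-labelled leaves were lost as well. The values rest on 3 libraries per group with a biological coefficient of variation of 0.247, and those of FER2 on 5 to 24 reads per library.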

Other observations

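Marker genes of leaf state and of other tissues give the setting of the ferritin values. As background, edgeR called 1.66% of all genes in knockout-labelled against wild type leaves. It called 8.87% in stable against wild type and 6.96% in stable against knockout-labelled leaves. Of 6 leaf senescence markers tested, edgeR (Benjamini-Hochberg adjusted p under the threshold of 0.05) called 0 in knockout-labelled against wild type leaves, and 1 had an unadjusted p under 0.05, while DESeq2 and limma-voom also called 0. SAG13, with the smallest p there, stood at 14.8, 18.3 and 21.6 RPKM in knockout-labelled and 146, 49.6 and 31.0 RPKM in wild type leaves. In stable against wild type leaves the senescence factors NAP and ORE1 changed, with log2 fold changes of -1.51 and -1.03 (edgeR adjusted p = 0.0093 and 0.0379). In stable against knockout-labelled leaves NAP fell by 1.25 (edgeR adjusted p = 0.0286) and WRKY53 rose by 2.88 (edgeR adjusted p = 0.0484). There limma-voom called 1 of the 6 lower and 0 higher, beside 5.37% of genes, and DESeq2 2 lower and 1 higher, beside 18.8%. NAP stood at 45.5, 21.1 and 25.8 RPKM in stable, 83.0, 101 and 63.7 RPKM in knockout-labelled and 95.5, 84.7 and 92.2 RPKM in wild type leaves. The NAP call against wild type held in all 9 fits without 1 library; the ORE1 and WRKY53 calls held in 3 and 2 of 9, and that of NAP against knockout-labelled leaves in 5 of 9. Both counts became 3 without stable library 1, and in stable against knockout-labelled leaves the count became 0 without knockout-labelled library 1 or 2 or stable library 2 or 3. FER1 stood at 274 RPKM in knockout-labelled library 1, where SAG12 was at 1.36 RPKM, and at 293 RPKM in library 2, where SAG12 was at 394 RPKM.

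The summed RPKM of the 6 senescence markers was 172, 607 and 152 in knockout-labelled, 258, 98.0 and 104 in stable and 321, 222 and 220 in wild type leaves, and their part in the ferritin values was not tested. Of 4 flower markers, edgeR called 0 in each comparison, with 2, 0 and 0 at an unadjusted p under 0.05 in knockout-labelled against wild type, stable against wild type and stable against knockout-labelled leaves. DESeq2 called 1, 0 and 0 and limma-voom 0 in each. PI had the smallest p in both comparisons with the knockout-labelled line (edgeR adjusted p = 0.165 against wild type and 0.173 for stable against knockout-labelled leaves), and SEP3 in stable against wild type leaves (edgeR adjusted p = 0.416). Of 5 vascular markers the phloem sucrose exporter SWEET11 fell by 1.09 on the log2 scale in stable against wild type leaves (edgeR adjusted p = 0.00695), a call held in all 9 fits without 1 library. Of 3 mesophyll markers the Rubisco activase gene RCA fell by 0.69 there (edgeR adjusted p = 0.0498), a call held in 1 of 9 such fits. Neither list had a call by edgeR in the other 2 comparisons, where 1 vascular and 1 mesophyll gene had an unadjusted p under 0.05 in knockout-labelled against wild type leaves and 0 in stable against knockout-labelled leaves; DESeq2 called those same numbers and limma-voom 0. Without stable library 1, the vascular count became 1 in each of these comparisons and the mesophyll count 2 in stable against wild type and 2 in stable against knockout-labelled leaves. The summed RPKM of the 5 vascular markers was 259.6 to 285 in knockout-labelled, 202 to 250 in stable and 346 to 368 in wild type leaves, and that of the 3 mesophyll markers was 8320.2 to 9657 in knockout-labelled, 6598 to 10522 in stable and 10695 to 11574 in wild type leaves; their part in the ferritin values was not tested. The 3 seed markers could not be tested, being listed at 0.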
